A study of Mus musculus with 18 samples.

Results

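Macrophages of donor monocyte origin that had settled on the surface of the mouse brain were compared with macrophages of the same donor origin inside the brain tissue. The comparison rests on 8 of the 18 libraries, chosen by their labels: 4 of monocyte-derived leptomeningeal macrophages and 4 of monocyte-derived microglia. All 13043 genes of the table entered, and 10597 passed the filter on low counts. Wild type C57BL6/C recipients had been lethally irradiated and given bone marrow that carried Ms4a3-Cre, the R26-TdTomato reporter and Cx3cr1-gfp, and cells were sorted from the brain 32 weeks later. Both monocyte-derived groups were positive for GFP and TdTomato. HSC-derived leptomeningeal macrophages (2 libraries) and HSC-derived microglia (4 libraries) were positive for GFP without TdTomato, and host microglia (4 libraries) had neither colour. HSC stands for haematopoietic stem cell. All 5 groups came from irradiated recipients of this marrow, so that every donor cell here carried a gfp allele at Cx3cr1. The labels give neither the age and sex of the mice nor whether replicates were separate mice, so that p-values measure only the spread between these libraries, which may be technical.

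The leptomeninges are the thin membranes that wrap the brain, and resident macrophages lie there beside fibroblasts, vessels and cerebrospinal fluid. These border macrophages take up debris and present antigen, and they are known by surface molecules such as the folate receptor gene Folr2 and the hyaluronan receptor gene Lyve1. Microglia are the macrophages of the tissue itself, scan it with fine processes and depend on TGF-beta for genes such as P2ry12 and Tmem119. In the normal mouse microglia arise in the embryo, and after irradiation cells from the marrow can take up the places of both populations. Ms4a3 is active in granulocyte and monocyte progenitors in the marrow, so that Cre driven by it labels monocytes, neutrophils and their descendants.

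Levels are given as CPM, unique molecular identifier (UMI) counts scaled to a common effective library size, and total UMI counts ran from 1066281 to 1809700 in leptomeningeal macrophages and from 1072911 to 1507199 in microglia. Ribosomal protein transcripts made up 13.7% to 14.6% of counts in leptomeningeal macrophages and 6.52% to 7.26% in microglia. Leptomeningeal cells were washed from the brain surface after collagenase type 2, while the remaining brain was digested with collagenase D and DNase and passed over Percoll, so that compartment and preparation cannot be told apart in any result here. Over tested genes the correlation of log2 CPM was 0.941 to 0.969 within leptomeningeal macrophages, 0.961 to 0.967 within microglia and 0.842 to 0.888 between them. Leptomeningeal replicate 1 lay nearer to microglia, at 0.872 to 0.888 against 0.842 to 0.867 for the other 3 libraries, and leaving it out is reported where it matters. Because these are bulk libraries, fewer cells of a type and less RNA per cell cannot be told apart.

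Several marker lists of other cells differed between the 2 compartments. Among all tested genes 19% were called higher and 16.3% lower in leptomeningeal macrophages, as described below. Of 10 tested neutrophil markers 9 were higher in leptomeningeal macrophages, with Csf3r lower, and the summed level of the 12 markers in the table was 1394 to 3127 CPM there against 121 to 189 CPM in microglia. All 9 tested markers of leptomeningeal fibroblasts and mural cells were higher, with a sum of 2170 to 3373 CPM against 32.2 to 45.5 CPM. So were all 14 tested monocyte markers, with 1723 to 2321 CPM against 290 to 385 CPM. Of the T and NK cell markers 18 of 19 were higher, with 723 to 1381 CPM against 183 to 237 CPM, and of the B and plasma cell markers 4 of 5 (2 without leptomeningeal replicate 1 or 3), with 680 to 1352 CPM against 461 to 522 CPM. The mast cell and basophil list had 4 of 5 higher in the fit of 18 libraries, 1 by DESeq2 and 0 when the 8 monocyte-derived libraries alone were fitted. It had 0 higher without leptomeningeal replicate 4, 1 without replicate 3 and 2 without replicate 2. Its sum was 4.92 to 113 CPM in leptomeningeal macrophages and 0 to 0.828 CPM in microglia, where Cpa3, Mcpt4, Cma1, Tpsb2, Fcer1a and Hdc had no count in any library. Dendritic cell markers summed to 2086 to 2448 CPM against 2863 to 2981 CPM, a list that holds the microglial gene Siglech, and 9 of 15 were higher and 2 lower. Only 5 of the 12 listed endothelial markers were tested, and none was called. Without the filter on low counts 2 were called higher. The endothelial markers in the table summed to 313 to 456 CPM against 371 to 406 CPM. Neuronal markers were not called either, with only 2 of the 11 listed tested, and summed to 20.9 to 27.4 CPM against 12.4 to 25.5 CPM. Astrocyte markers had 3 higher and 1 lower of 6, oligodendrocyte markers 2 and 1 of 6, choroid plexus markers 1 of 7 higher (2 without leptomeningeal replicate 1) and erythroid markers 1 of 5 higher. The higher shares of the choroid plexus (14.3%) and erythroid (20%) lists lay near that of all genes. So did the lower shares of the astrocyte and oligodendrocyte lists (16.7% each). In leptomeningeal macrophages no marker of any other-cell list in the table was at 0 in all 4 libraries. In microglia Dcn and Pdgfrb of the fibroblast and mural list, Prtn3 of the neutrophil list, Ly6d of the dendritic cell list, Iglc2 of the B cell list, Ly6c1 and Slco1a4 of the endothelial list and Folr1, Kl and Kcnj13 of the choroid plexus list were at 0 in all 4 libraries. The part of these transcripts in the gene results below was not tested.

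**Figure D1:**
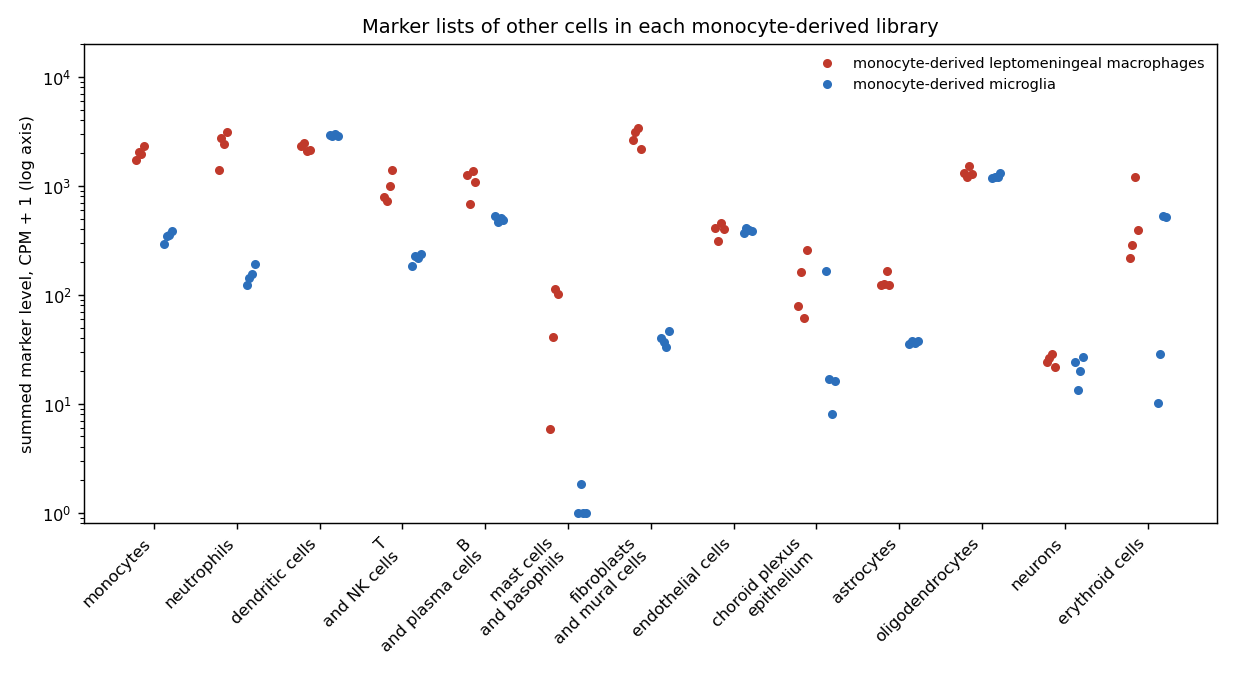
Summed level of each marker list of other cells (CPM + 1, log axis), 1 point per library, with monocyte-derived leptomeningeal macrophages in red on the left and monocyte-derived microglia in blue on the right. Fibroblast and mural cell markers lie at 2170 to 3373 CPM against 32.2 to 45.5 CPM and neutrophil markers at 1394 to 3127 CPM against 121 to 189 CPM, while endothelial and neuronal markers overlap.

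The 5 genes taken as markers of the 2 compartments followed the labels. Folr2 (chr7:101839988-101857194, minus strand, mm10), a folate receptor of border macrophages, had 275, 347, 419 and 450 CPM in leptomeningeal macrophages against 12.1, 18.2, 9.81 and 11.97 CPM in microglia. F13a1 (chr13:36867178-37050244, minus strand), the A chain of coagulation factor XIII, had 827, 981, 940 and 1088 CPM against 39.2, 51.3, 39.9 and 52.7 CPM. For both genes every leptomeningeal library lay above every microglial one. The log2 fold changes, leptomeningeal macrophages over microglia, were 4.85 for Folr2 (SE 0.20) and 4.39 for F13a1 (SE 0.19), each with an adjusted p of 5.31e-19 (edgeR quasi-likelihood test, two-sided). H2-Aa (chr17:34282744-34287823, minus strand), the alpha chain of an MHC class II molecule, had 11904, 23437, 19857 and 15870 CPM in leptomeningeal macrophages against 928, 1527, 1637 and 1322 CPM in microglia. P2ry12 (chr3:59216272-59262871, minus strand), the ADP receptor that guides microglial processes, had 626, 265, 275 and 284 CPM in leptomeningeal macrophages against 1592, 1466, 1514 and 1729 CPM in microglia. Sparc (chr11:55394500-55423183, minus strand), a secreted matrix protein made by microglia, had 429, 150, 191 and 208 CPM against 1809, 1682, 1653 and 1650 CPM. The groups did not overlap for these 3 genes either, and the share of all tested genes without overlap is not given here. Replicate 1 of the leptomeningeal macrophages was the highest of its group for P2ry12 and Sparc and the lowest for H2-Aa. P2ry12 fell by 2.12 on the log2 scale (SE 0.22, adjusted p = 1.83e-09) and Sparc fell by 2.79 (SE 0.26, adjusted p = 3.88e-09). Without leptomeningeal replicate 1 these changes were -2.52 for P2ry12 and -3.21 for Sparc.

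**Figure D2:**
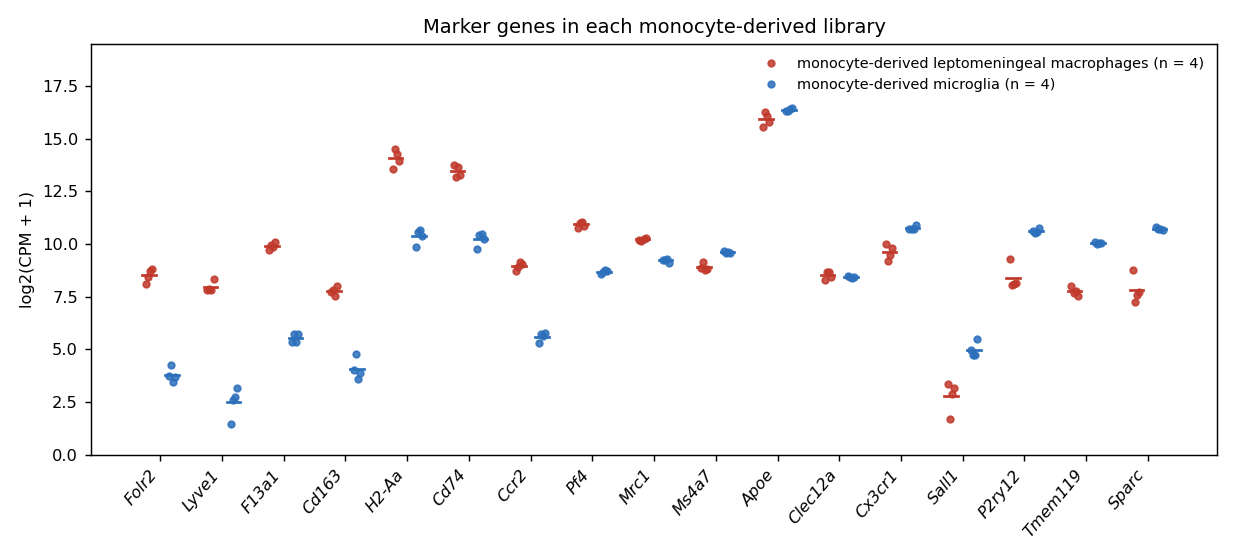
Level of 17 marker genes on a log2(CPM + 1) scale, 1 point per library and a bar at the mean of the 4 libraries, with monocyte-derived leptomeningeal macrophages in red on the left of each gene and monocyte-derived microglia in blue on the right. Folr2, Lyve1, F13a1, Cd163, H2-Aa, Cd74, Ccr2, Pf4 and Mrc1 lie higher in leptomeningeal macrophages, Clec12a overlaps, and Sall1, P2ry12, Tmem119 and Sparc lie lower.

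Across the genome 3736 of 10597 tested genes, or 35.3%, passed the edgeR test at an adjusted p of 0.05. Of these 2012 were higher in leptomeningeal macrophages (19% of tested genes) and 1724 were lower (16.3%). More than a doubling was seen in 1035 of the higher genes and more than a halving in 584 of the lower ones, and the median log2 fold change over all tested genes was -0.04. Leaving out leptomeningeal replicate 1 gave 3751 called genes, 3407 of them shared with the full set.

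The 12 genes with the highest log2 fold change among those with at least 50 CPM and no overlap included 6 members of the neutrophil marker list. Ngp and Camp, which encode granule proteins of neutrophil precursors, had means of 344 ± 143 and 328 ± 107 CPM in leptomeningeal macrophages against 1.10 ± 0.478 and 1.47 ± 1.39 CPM in microglia (SD, n = 4 each). Ltf and Lcn2, also granule proteins, had count ratios of 476 (95% exact interval 84.99 to 18839) and 338 (93.2 to 2798), counting error only. S100a8, Mmp9 and Chil3 averaged 393 ± 101.3, 137 ± 21.1 and 83.7 ± 50.6 CPM in leptomeningeal macrophages and 5.32 ± 5.52, 1.74 ± 1.17 and 1.35 ± 1.31 CPM in microglia. These genes moved with the neutrophil marker sums given above, and Ltf, Ngp, Lcn2, Camp, S100a8 and Mmp9 are themselves members of that list. Ptgds, the prostaglandin D synthase of leptomeningeal fibroblasts, had 2642 ± 525 CPM against 34.3 ± 7.35 CPM, and Igkc, an immunoglobulin light chain of B cells, 389 ± 215 CPM against 6.57 ± 6.38 CPM.

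Of the 12, 3 more are not in the neutrophil, fibroblast or B cell lists. Cd209f, a C-type lectin of the border macrophage list, had 185, 307, 208 and 237 CPM in leptomeningeal macrophages against 1.15, 4.14, 3.50 and 0.798 CPM in microglia. Its log2 fold change was 6.59 (SE 0.31, adjusted p = 5.22e-15). Pla2g2d, a secreted phospholipase of lymphoid and tissue myeloid cells, had 151, 179, 182 and 175 CPM against 2.88, 4.14, 0.701 and 2.39 CPM, a log2 fold change of 6.05 (SE 0.27, adjusted p = 1.53e-18). Both genes lay far above the limit of 3 counts in every leptomeningeal library and near it in every microglial one. Fcna, the lectin ficolin A, had a count ratio of 202 (95% exact interval 55.5 to 1674).

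The 12 lowest genes by the same rule were led by a heat shock gene. Hspa1b, an inducible Hsp70, had 224, 56.0, 38.3 and 72.0 CPM in leptomeningeal macrophages against 1147, 847, 1104 and 994 CPM in microglia, a log2 fold change of -3.38 (SE 0.43, adjusted p = 2.60e-05). Tmem52, which encodes a membrane protein, had 13.3, 18.7, 10.8 and 12.8 CPM against 127, 137, 143 and 148 CPM. Serpine2, a secreted protease inhibitor, had 73.8, 37.3, 26.1 and 28.3 CPM against 273, 267, 242 and 238 CPM. The rule itself required every microglial library to lie above every leptomeningeal one in these genes. The others were Npnt, a matrix ligand of integrins (-3.05), the transcription factor gene Sox4 (-2.97), the Cdk5 activator gene Cdk5r1 (-2.88), Sparc, the surface sialomucin gene Cd34 (-2.65), the adhesion receptor gene Adgrg1 (-2.58), the calpain gene Capn3 (-2.55), Cfap74 (-2.52) and the scaffold protein gene Whrn (-2.39). Leptomeningeal replicate 1 was the highest of its group in Hspa1b, Npnt, Sox4, Adgrg1, Capn3 and Serpine2, and without it the log2 fold changes were -4.21 for Hspa1b, -3.88 for Npnt, -4.21 for Sox4, -3.32 for Adgrg1 and -3.66 for Capn3.

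The gene groups below are lists of known members, each described by how many were called beside the 19% and 16.3% of all tested genes that were called higher and lower. Where no member of a group was called in a direction, DESeq2 called none either, and no member had an unadjusted p under 0.05 in that direction except 1 immediate early gene. In multigene families with near-identical copies (Hspa1a and Hspa1b, H2-Q6 and H2-Q7, the Ifitm and Cd209 genes) the authors' counting could split reads, so single members are uncertain.

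Most markers of border macrophages were higher at the brain surface. Of 29 tested markers 18 were higher and 6 lower, with a median log2 fold change of 1.68. Lyve1, the hyaluronan receptor, had 226, 234, 226 and 327 CPM in leptomeningeal macrophages against 1.73, 4.97, 5.60 and 7.98 CPM in microglia. Its log2 fold change was 5.68 (SE 0.32, adjusted p = 1.25e-10). Cd163, the haemoglobin scavenger receptor, averaged 219 ± 32.0 CPM against 16.6 ± 6.80 CPM. Clec10a, a galactose-binding lectin, averaged 328 ± 22.2 CPM against 11.2 ± 3.80 CPM, and Cd209g, another C-type lectin, 68.7 ± 1.69 CPM against 1.34 ± 0.888 CPM. The groups lay far apart in these genes. Mrc1, the mannose receptor CD206, and Pf4, a chemokine of border macrophages, were also higher, by smaller factors. Mrc1 averaged 1191 ± 47.9 CPM against 597 ± 29.2 CPM, a log2 fold change of 1.00 (SE 0.15), and Pf4 1957 ± 178 CPM against 407 ± 26.0 CPM, a log2 fold change of 2.27 (SE 0.18). Ms4a7, a membrane protein used as a marker of marrow-derived brain macrophages, went the other way, with 480 ± 58.6 CPM in leptomeningeal macrophages against 780 ± 30.5 CPM in microglia (log2 fold change -0.70, SE 0.18, adjusted p = 0.00232). Clec12a, an inhibitory lectin, had 370 ± 48.2 CPM against 345 ± 6.79 CPM and was not called (adjusted p = 0.688). Among the other lower members were Maf, Cp, Fcrls and Cd9, named after their values were seen.

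Genes of homeostatic microglia were lower at the brain surface almost as a whole. Of 34 tested members 31 were lower and none higher, with a median log2 fold change of -1.76. Tmem119, a membrane protein that marks microglia, had 256, 205, 218 and 184 CPM in leptomeningeal macrophages against 1096, 1008, 1064 and 1062 CPM in microglia, a log2 fold change of -2.29 (SE 0.17, adjusted p = 1.22e-12). Every leptomeningeal value lay below every microglial one. Rtn4rl1, a receptor of the Nogo family, averaged 29.3 ± 7.67 CPM against 152 ± 6.25 CPM, Golm1, a Golgi membrane protein, 89.0 ± 26.3 CPM against 328 ± 24.8 CPM, and Cx3cr1, the fractalkine receptor whose locus carried gfp on donor cells, 799 ± 187 CPM against 1733 ± 108 CPM. The transcription factor gene Sall1, which upholds microglial identity, was low in both groups, with 9.13, 2.196, 6.38 and 8.08 CPM in leptomeningeal macrophages against 30.0, 25.7, 25.9 and 43.9 CPM in microglia (log2 fold change -2.18, SE 0.28, adjusted p = 2.01e-07). The 3 members not called were Csf1r, Ltc4s and Il7r, named after their values were seen.

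Tgfbr1, the type I TGF-beta receptor on which microglial identity depends, was lower, with 462, 373, 319 and 354 CPM in leptomeningeal macrophages against 1378, 1361, 1405 and 1338 CPM in microglia. Its log2 fold change was -1.86 (SE 0.16, adjusted p = 6.19e-11). Of 21 tested genes of TGF-beta and BMP signalling 11 were lower and 2 higher, with a median of -0.56. Smad7 and Pmepa1, feedback inhibitors that the pathway induces, averaged 42.5 ± 14.9 and 80.7 ± 13.5 CPM in leptomeningeal macrophages and 99.0 ± 16.6 and 180 ± 14.3 CPM in microglia. Gdf3, a ligand of the family, averaged 41.7 ± 13.7 CPM against 120 ± 23.1 CPM. The 2 higher members, Nrros and Skil, were named after their values were seen, and 1 was left without leptomeningeal replicate 1 or microglial replicate 1, 2 or 4.

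Transcription factors of macrophages and microglia were split, with 11 of 31 higher and 13 lower. Id3, a helix-loop-helix inhibitor, averaged 48.5 ± 12.2 CPM in leptomeningeal macrophages against 3.72 ± 1.07 CPM in microglia, a log2 fold change of 3.66 (SE 0.32, adjusted p = 5.88e-11). Klf2 and Klf6, zinc finger factors that also respond early to stimuli, averaged 529 ± 143 and 377 ± 50.8 CPM against 115 ± 12.04 and 112 ± 11.3 CPM. Batf, an AP-1 family factor, averaged 103 ± 12.7 CPM against 36.3 ± 5.92 CPM. The lower genes held Sall1 and members of the Mef2 and Smad families.

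Transcripts of the main MHC class II chains were higher at the brain surface. The class II molecules display peptides from engulfed material to CD4 T cells, with Cd74 as the invariant chain and the H2-DM proteins loading peptide, and the coactivator Ciita switches the genes on through X and Y boxes in their promoters. Of 14 tested members 8 were higher and none lower (1 lower without leptomeningeal replicate 2), with a median log2 fold change of 0.80. H2-Eb1 (chr17:34305867-34316674, plus strand), a class II beta chain, had 7760, 11220, 11633 and 10264 CPM in leptomeningeal macrophages against 536, 828, 930 and 799 CPM in microglia. H2-Ab1 (chr17:34257689-34269419, plus strand), the beta chain that pairs with H2-Aa, had 11037, 18899, 20761 and 15907 CPM against 970, 1632, 1645 and 1257 CPM. Replicate 1 was the lowest of its group in both genes on both sides, and the groups were far apart. The log2 fold changes were 3.72 for H2-Eb1 (SE 0.22, adjusted p = 1.89e-15), 3.597 for H2-Ab1 (SE 0.22, adjusted p = 6.07e-15) and 3.71 for H2-Aa (SE 0.24, adjusted p = 1.56e-14). Cd74 averaged 11571 ± 2281 CPM against 1219 ± 244 CPM, a log2 fold change of 3.25 (SE 0.20, adjusted p = 5.22e-15). Named after their values were seen, Ciita had 210, 249, 291 and 216 CPM against 13.3, 21.5, 23.1 and 13.6 CPM (log2 fold change 3.76, SE 0.26), and H2-DMb1 had 642, 696, 870 and 721 CPM against 156, 180, 204 and 191 CPM (2.00, SE 0.15). H2-DMa and H2-Oa, likewise named afterwards, had smaller changes of 0.81 and 0.79. The remaining members, H2-DMb2, H2-Ob, Ctss, Rfx5, Rfxap and Rfxank, were not called, and H2-Eb2 was not analysed here. B cells and dendritic cells, whose marker sums are given above, also use these genes.

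The promoters of H2-Eb1, H2-DMb1 and H2-Aa, which were all called higher, are shown because X and Y boxes are known elements of class II promoters. RefSeq (GRCm38.p6, the mm10 assembly) gave promoters for 11 of the 15 listed genes, each from 250 bases before to 50 bases after the transcription start. Capitals mark the X core, AGNNACNGA, and the Y core, ATTGG, on either strand. The H2-Eb1 promoter is chr17:34305617-34305916 (plus strand), that of H2-DMb1 is chr17:34152941-34153240 (plus strand) and that of H2-Aa is chr17:34287774-34288073 (minus strand).
H2-Eb1: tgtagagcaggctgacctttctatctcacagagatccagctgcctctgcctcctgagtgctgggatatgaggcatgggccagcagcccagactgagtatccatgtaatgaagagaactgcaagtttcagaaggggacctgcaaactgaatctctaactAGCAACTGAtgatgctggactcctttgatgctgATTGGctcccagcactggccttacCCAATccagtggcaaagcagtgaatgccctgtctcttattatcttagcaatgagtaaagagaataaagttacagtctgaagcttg
H2-DMb1: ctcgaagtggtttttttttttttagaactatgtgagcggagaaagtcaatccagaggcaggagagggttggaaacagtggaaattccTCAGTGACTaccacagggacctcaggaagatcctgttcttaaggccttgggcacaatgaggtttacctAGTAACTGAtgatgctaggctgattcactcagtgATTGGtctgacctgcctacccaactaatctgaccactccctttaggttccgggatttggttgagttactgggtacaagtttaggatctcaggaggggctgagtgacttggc
H2-Aa: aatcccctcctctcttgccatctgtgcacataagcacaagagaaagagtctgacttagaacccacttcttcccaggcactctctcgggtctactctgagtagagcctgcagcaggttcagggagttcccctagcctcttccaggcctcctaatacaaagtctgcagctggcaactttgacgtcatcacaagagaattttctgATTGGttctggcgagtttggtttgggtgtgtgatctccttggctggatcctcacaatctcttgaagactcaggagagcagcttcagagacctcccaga
In H2-Eb1 the X core was followed by a Y core on the same strand after 24 bases, and in H2-DMb1 after 25 bases. The H2-Aa window held a Y core and no match to these X core letters. An X core followed by a Y core within 10 to 40 bases stood in the promoters of 3 of the 11 genes with an entry (H2-Eb1, H2-DMb1 and H2-Eb2) and in 0.408% of 32851 promoters of all genes. H2-Oa and H2-DMa, also called higher, had no such pair. With or without the other core, the X core was in 17.7% and the Y core in 37.4% of all promoters. Of the 11 genes 5 had an X core and 10 a Y core. The motifs do not overlap. A match of letters describes the sequence and not binding.

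MHC class I genes, which present peptides from inside the cell, were higher by smaller factors. Of 20 tested members 13 were higher and 1 lower, with a median log2 fold change of 0.68. H2-Q7 and H2-T22, non-classical class I genes, averaged 235 ± 39.3 and 95.1 ± 7.09 CPM in leptomeningeal macrophages against 90.7 ± 16.8 and 43.8 ± 2.67 CPM in microglia. Psmb8, a subunit of the immunoproteasome, averaged 824 ± 140 CPM against 366 ± 23.5 CPM, and H2-Q6 83.2 ± 39.1 CPM against 26.1 ± 3.97 CPM. Co-stimulatory and checkpoint genes were mixed, with 4 of 13 higher and 6 lower. Cd83, which stabilises class II molecules at the surface, averaged 837 ± 163 CPM against 233 ± 22.7 CPM, and Tnfsf9, the 4-1BB ligand, 150 ± 26.1 CPM against 21.4 ± 4.68 CPM. Havcr2, which encodes the checkpoint receptor TIM-3, and Icosl, the ICOS ligand, were lower, with 89.7 ± 13.2 and 52.8 ± 19.0 CPM against 210 ± 9.89 and 142 ± 4.58 CPM.

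Genes of the type I interferon response were higher in 27 of 36 cases and lower in none, with a median log2 fold change of 0.85. The largest values came from the Ifitm genes, membrane proteins that block virus entry. Ifitm3 had 916, 988, 1144 and 860 CPM in leptomeningeal macrophages against 103, 132, 149 and 137 CPM in microglia, a log2 fold change of 2.91 (SE 0.23, adjusted p = 1.13e-10). Ifitm2 averaged 312 ± 33.0 CPM against 39.6 ± 9.19 CPM and Ifitm1 23.2 ± 4.72 CPM against 1.28 ± 0.717 CPM. Ifi27l2a, an interferon-induced mitochondrial protein, averaged 1191 ± 153 CPM against 266 ± 31.8 CPM. Ifitm genes are also abundant in monocytes and neutrophils, whose marker sums moved in the same direction.

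Chemokine ligands were higher as a group, with 19 of 21 tested members higher and none lower and a median log2 fold change of 2.48. Ccl7, a ligand of the monocyte receptor CCR2, had 626, 540, 764 and 757 CPM in leptomeningeal macrophages against 35.7, 62.1, 47.6 and 46.3 CPM in microglia. Its log2 fold change was 3.82 (SE 0.22, adjusted p = 6.81e-14). Ccl6, a macrophage chemokine of the mouse, averaged 417 ± 79.8 CPM against 70.6 ± 10.2 CPM, and Cxcl1, which attracts neutrophils, 78.2 ± 15.8 CPM against 5.56 ± 2.45 CPM. The 2 members not called were Ccl3 and Cxcl16, named after their values were seen. Of 14 tested chemokine and chemoattractant receptors 8 were higher and 3 lower. Ccr2, the receptor that brings monocytes out of the marrow, had 427, 474, 568 and 526 CPM against 38.0, 52.1, 48.3 and 53.5 CPM, a log2 fold change of 3.39 (SE 0.17, adjusted p = 3.25e-17). C5ar1, the C5a receptor, averaged 45.9 ± 7.80 CPM against 7.66 ± 2.59 CPM. The formyl peptide receptor genes Fpr1 and Fpr2 averaged 24.8 ± 6.08 and 23.5 ± 7.58 CPM against 1.39 ± 1.38 and 2.78 ± 2.01 CPM, and neutrophils and monocytes also express them.

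Inflammatory cytokines and genes of NF-kB feedback were higher in 19 of 23 cases and lower in 1 (2 without leptomeningeal replicate 2), with a median of 1.62. Il10, an anti-inflammatory cytokine, had 43.6, 65.9, 58.0 and 74.7 CPM in leptomeningeal macrophages against 5.76, 8.28, 4.90 and 3.99 CPM in microglia (log2 fold change 3.38, SE 0.28, adjusted p = 1.61e-11). Nlrp3, the inflammasome sensor, averaged 183 ± 28.9 CPM against 55.2 ± 9.64 CPM, Il1rn, the interleukin 1 receptor antagonist, 33.1 ± 5.73 CPM against 4.59 ± 0.579 CPM, and Zfp36, which destabilises cytokine mRNA, 2544 ± 307 CPM against 753 ± 79.3 CPM. Cytokine genes and genes that restrain them were both among the higher members.

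Immediate early genes, which cells transcribe within minutes of a stimulus, were higher in 23 of 25 cases and lower in none (1 without leptomeningeal replicate 3), with a median log2 fold change of 2.44. Egr1, a zinc finger factor, had 2792, 3522, 2563 and 2101 CPM in leptomeningeal macrophages against 342, 315, 357 and 285 CPM in microglia. The log2 fold change of Egr1 was 3.08 (SE 0.21, adjusted p = 1.07e-13). Ier2, a nuclear early response protein, had 1080, 1324, 1067 and 874 CPM against 87.0, 82.8, 96.7 and 79.8 CPM, and Egr2 averaged 74.3 ± 13.6 CPM against 6.15 ± 3.59 CPM. Both compartments were handled with actinomycin D, which blocks transcription, but their digestion differed as described above. Heat shock and chaperone genes showed no common direction, with 6 of 20 higher and 3 lower, and 3 higher without leptomeningeal replicate 1 or microglial replicate 2 or 3. Hspa1a, the partner of Hspa1b, had 386, 210, 163 and 170 CPM in leptomeningeal macrophages against 1159, 977, 1265 and 1116 CPM in microglia. Hspb1, a small heat shock protein, was also lower, with 13.02 ± 2.62 CPM against 35.2 ± 7.93 CPM. Hsp90ab1, the constitutive Hsp90, was higher, with 1215 ± 179 CPM against 662 ± 28.3 CPM.

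**Figure D3:**
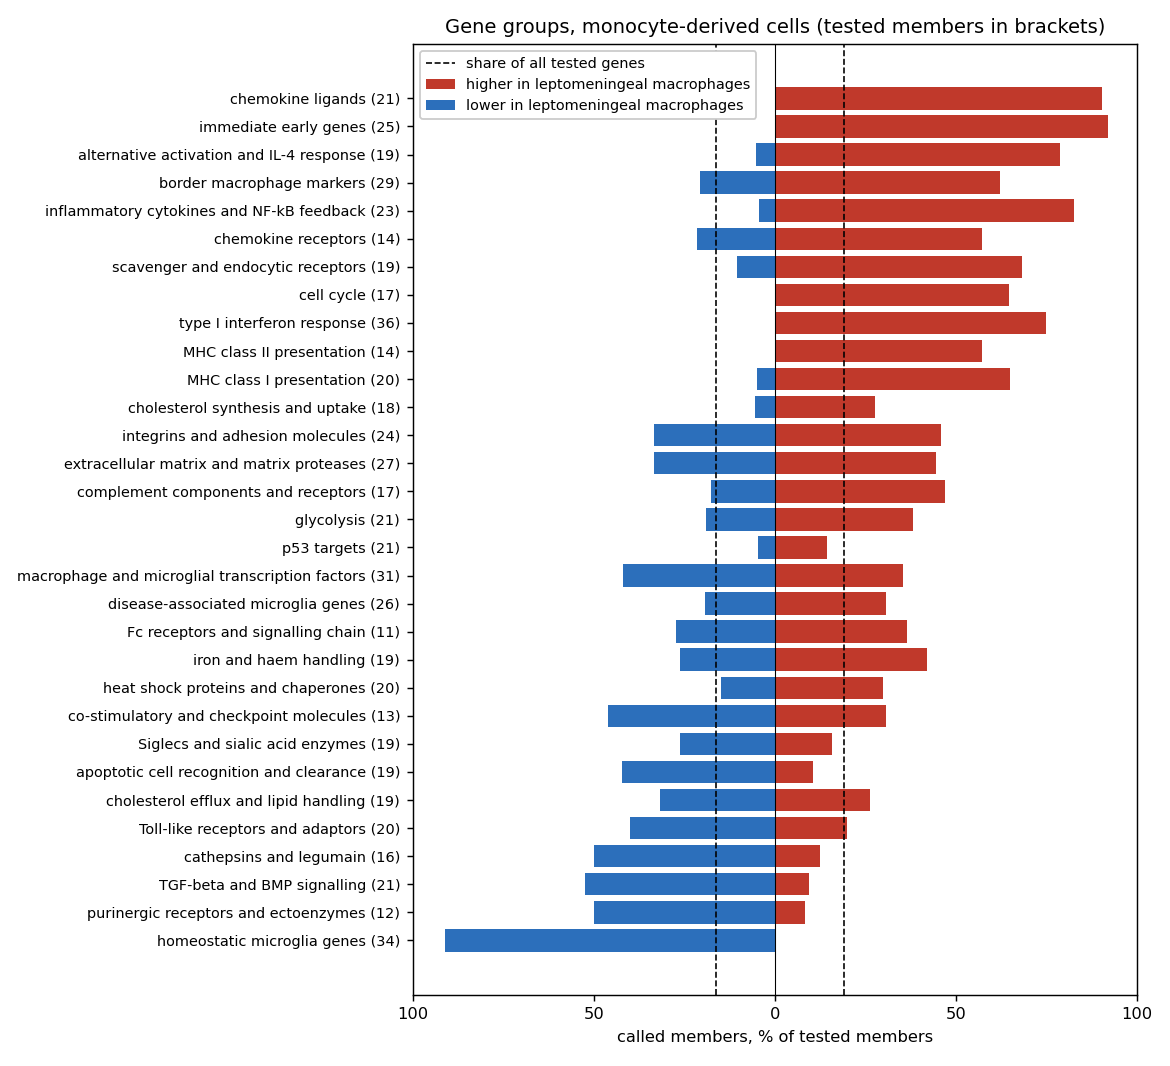
Share of the tested members of each gene group that was called higher (red, to the right) and lower (blue, to the left) in monocyte-derived leptomeningeal macrophages than in monocyte-derived microglia, with the number of tested members in brackets. Dashed lines mark the 19% and 16.3% of all tested genes; immediate early genes (92.0% higher) and homeostatic microglia genes (91.2% lower) lie at the ends.

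Genes linked to alternative activation and interleukin 4 were higher in 15 of 19 cases and lower in 1, with a median of 2.41. Mgl2, a galactose-binding lectin, averaged 336 ± 84.7 CPM in leptomeningeal macrophages against 13.4 ± 6.07 CPM in microglia. Irf4, which interleukin 4 induces in macrophages, averaged 21.7 ± 3.16 CPM against 3.64 ± 1.84 CPM, and Klf4, a zinc finger factor, 659 ± 56.3 CPM against 131 ± 7.41 CPM. The list shares Mrc1, Clec10a and Mgl2 with the border markers, and Chil3, Ccl22 and Irf4 also mark monocytes or dendritic cells.

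Scavenger receptors were mostly higher and genes of apoptotic cell recognition lower in 8 of 19 cases. Of 19 tested scavenger and endocytic receptors 13 were higher and 2 lower, with Folr2, Cd209f and Lyve1 among the higher ones. Genes of apoptotic cell recognition had 2 higher and 8 lower of 19 tested. The 2 higher were ligand genes. Gas6, the bridge between phosphatidylserine and the TAM receptors, had 544, 490, 523 and 529 CPM against 115, 115, 126 and 104 CPM (log2 fold change 2.18, SE 0.14, adjusted p = 1.14e-14). Anxa1, a phospholipid-binding protein, averaged 126 ± 37.7 CPM against 6.53 ± 2.97 CPM. Abca1, which exports cholesterol and phospholipid, averaged 128 ± 37.6 CPM against 378 ± 13.9 CPM and was among the lower members.

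Complement genes were higher in 8 of 17 cases (47.1%) and lower in 3 (17.6%). Cfp, which encodes properdin, averaged 212 ± 44.7 CPM in leptomeningeal macrophages against 14.7 ± 2.77 CPM in microglia, and C4b, complement component 4, 389 ± 80.3 CPM against 29.9 ± 6.86 CPM. Serping1, the C1 inhibitor, had a count ratio of 71.0 (95% exact interval 12.3 to 2844), and fibroblasts also make C4b and Serping1. Of the C1q subunit genes, named after their values were seen, C1qc was lower, with 5357 ± 429 CPM against 7239 ± 666 CPM (log2 fold change -0.43, SE 0.16, adjusted p = 0.0363). C1qa and C1qb averaged 9688 ± 1106 and 12689 ± 3892 CPM against 9854 ± 504 and 13204 ± 478 CPM and were not called (adjusted p = 0.934 and 0.851). Fc receptor genes had 4 higher and 3 lower of 11. Fcgrt, the neonatal Fc receptor that recycles antibody, averaged 275 ± 59.2 CPM against 51.5 ± 3.59 CPM, Fcgr4 93.5 ± 22.4 CPM against 22.6 ± 7.12 CPM, and the inhibitory receptor gene Fcgr2b 362 ± 117 CPM against 162 ± 7.39 CPM. Fcrls, an Fc receptor-like gene of microglia, averaged 1195 ± 143 CPM against 2553 ± 60.6 CPM.

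Cholesterol genes moved in both directions. Among efflux and lipid handling genes 5 of 19 were higher and 6 lower, with 3 higher without microglial replicate 4 and 10 lower without the 3 shallow HSC-derived libraries. Mylip, a ubiquitin ligase induced by sterol-sensing nuclear receptors, averaged 44.1 ± 9.64 CPM in leptomeningeal macrophages against 131 ± 6.50 CPM in microglia, and Npc1, which moves cholesterol out of lysosomes, 52.6 ± 7.71 CPM against 117 ± 6.81 CPM. Pltp, the phospholipid transfer protein, went the other way with 440 ± 79.8 CPM against 90.9 ± 22.5 CPM. Apoe, the lipid carrier apolipoprotein E, had 47550, 78266, 69513 and 56819 CPM against 80598, 80967, 88566 and 89626 CPM. Every leptomeningeal value of Apoe lay below every microglial one, but the log2 fold change of -0.43 (SE 0.24) did not pass the test (adjusted p = 0.161), though it passed in 3 of 15 alternative fits. Of 18 tested synthesis and uptake genes 5 were higher and 1 lower, which was lost without leptomeningeal replicate 1 or 3 or microglial replicate 4. The higher ones included Srebf2, the regulator of synthesis, at 69.4 ± 2.31 CPM against 20.0 ± 2.80 CPM, Stard4, a cholesterol transfer protein, at 17.9 ± 4.25 CPM against 3.32 ± 1.16 CPM, and Pmvk, an enzyme of the mevalonate pathway, at 40.0 ± 9.17 CPM against 19.1 ± 4.87 CPM.

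Iron and haem genes were higher in 8 of 19 cases and lower in 5. Fth1, the ferritin heavy chain that stores iron, averaged 7419 ± 1352 CPM in leptomeningeal macrophages against 3373 ± 235 CPM in microglia, and Blvrb, a biliverdin reductase, 420 ± 60.7 CPM against 222 ± 13.3 CPM. Slc40a1, the iron exporter ferroportin, was lower, with 40.1 ± 19.4 CPM against 144 ± 9.78 CPM. Of 16 tested cathepsins and related genes 8 were lower and 2 higher. Ctsd, the lysosomal protease cathepsin D, had 3658, 2701, 3180 and 2847 CPM against 10511, 10438, 10357 and 10271 CPM, a log2 fold change of -1.75 (SE 0.18, adjusted p = 2.12e-09). Ctsf and Ctse averaged 46.2 ± 9.73 and 80.4 ± 7.58 CPM against 99.7 ± 3.56 and 152 ± 3.29 CPM. Ctsw, at 70.4 ± 31.1 CPM against 11.5 ± 3.59 CPM, is a cathepsin of T and NK cells, whose marker sum also was higher.

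Sensing receptors moved in both directions. Of 12 tested purinergic receptors and ectoenzymes 6 were lower and 1 higher. Gpr34, a lysophosphatidylserine receptor, averaged 163 ± 52.996 CPM in leptomeningeal macrophages against 556 ± 44.4 CPM in microglia and P2ry13, an ADP receptor, 174 ± 28.3 CPM against 435 ± 17.8 CPM. The higher member was P2ry10, a lysophosphatidylserine receptor of lymphocytes, at 24.02 ± 10.01 CPM against 2.28 ± 1.04 CPM. Siglecs and sialic acid enzymes had 3 higher (15.8%) and 5 lower (26.3%) of 19, and 11 were not called. The higher share lay below the 19% of all tested genes. Siglech, of microglia and plasmacytoid dendritic cells, averaged 296 ± 122 CPM against 1009 ± 45.2 CPM, while Siglec1, the sialoadhesin of border and lymph node macrophages, averaged 50.7 ± 9.97 CPM against 7.15 ± 3.99 CPM. Siglecg averaged 10.7 ± 2.56 CPM against 0.949 ± 1.17 CPM, and St3gal6, a sialyltransferase, 173 ± 13.3 CPM against 284 ± 20.4 CPM. Toll-like receptors and adaptors had 4 higher (20%) and 8 lower (40%) of 20. The co-receptor gene Cd14 had 2874, 4782, 3476 and 3765 CPM against 666, 757, 764 and 710 CPM, a log2 fold change of 2.36 (SE 0.25, adjusted p = 4.61e-08). The adaptor gene Myd88 averaged 110 ± 10.9 CPM against 65.4 ± 6.84 CPM. The receptor gene Tlr12 and the chaperone gene Unc93b1, which delivers Toll-like receptors to endosomes, averaged 20.7 ± 6.87 and 426 ± 62.3 CPM against 61.1 ± 3.67 and 671 ± 66.0 CPM.

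Adhesion and matrix genes moved in both directions. Of 24 tested integrins and adhesion molecules 11 were higher and 8 lower. Jaml, Alcam and Cd44, adhesion molecules of migrating leukocytes, averaged 50.9 ± 9.24, 28.5 ± 4.34 and 56.7 ± 5.85 CPM in leptomeningeal macrophages against 6.68 ± 5.84, 1.71 ± 1.24 and 11.7 ± 2.99 CPM in microglia. Itga6, a laminin-binding integrin, averaged 118 ± 13.1 CPM against 307 ± 21.8 CPM. Of 27 tested matrix and protease genes 12 were higher and 9 lower, with F13a1 and Fn1, which encodes fibronectin (28.9 ± 7.52 CPM against 0.702 ± 0.836 CPM), at the higher end and Sparc and Serpine2 at the lower end. Fibroblasts and monocytes also express Fn1.

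Cell cycle genes were higher in most cases and glycolysis genes moved in both directions. Of 17 tested cell cycle genes 11 were higher and none lower, with a median of 0.87. Pcna, the clamp of DNA replication, averaged 123 ± 1.87 CPM in leptomeningeal macrophages against 67.3 ± 8.94 CPM in microglia, and Top2a, a topoisomerase of dividing cells, 13.6 ± 4.32 CPM against 3.47 ± 2.78 CPM. Tubb5, a tubulin, and Cenpa, a centromeric histone, averaged 134 ± 7.11 and 30.2 ± 9.31 CPM against 63.4 ± 10.5 and 11.5 ± 4.20 CPM. Of 21 tested p53 targets 3 were higher and 1 lower, shares of 14.3% and 4.76% that lie below those of all genes. The higher ones were Btg2, which is also an immediate early gene, at 894 ± 82.7 CPM against 191 ± 23.1 CPM, Cdkn1a, which encodes the cell cycle inhibitor p21, at 691 ± 105 CPM against 186 ± 10.4 CPM, and Pmaip1, at 35.8 ± 1.99 CPM against 12.3 ± 2.83 CPM. Sesn1, a stress-induced sestrin, was lower, at 178 ± 14.7 CPM against 357 ± 27.3 CPM. Glycolysis genes had 8 higher (38.1%) and 4 lower (19%) of 21, and 2 lower without leptomeningeal replicate 4. Ldha, the A subunit of lactate dehydrogenase, averaged 203 ± 14.4 CPM against 84.6 ± 4.20 CPM, and Ldhb, its B subunit, 49.5 ± 9.85 CPM against 127 ± 34.3 CPM. Pfkp, a phosphofructokinase, and Gpi1, a glucose phosphate isomerase, averaged 43.8 ± 13.5 and 324 ± 42.4 CPM against 7.67 ± 1.66 and 155 ± 4.08 CPM.

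Genes of disease-associated microglia, a state described in neurodegeneration models, had 8 higher (30.8%) and 5 lower (19.2%) of 26 tested, with a median of 0.10. Lgals3, which encodes galectin 3, averaged 374 ± 52.2 CPM in leptomeningeal macrophages against 52.7 ± 13.3 CPM in microglia (log2 fold change 2.84, SE 0.20, adjusted p = 1.20e-12). Cadm1, a cell adhesion molecule, and Ctsd were among the lower members, with Cadm1 at 43.1 ± 4.58 CPM against 123 ± 11.1 CPM. The list gave 8 lower members when the 8 monocyte-derived libraries alone were fitted.

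The same compartments were compared in HSC-derived cells, with 2 leptomeningeal and 4 microglial libraries. No library stands in a group of both comparisons, but all 18 libraries shared 1 fit and its estimate of spread, and without the 3 shallow HSC-derived libraries the monocyte-derived comparison called 4779 genes. Of 10597 genes 1030 (9.72%) were called, 609 higher (5.75%) and 421 lower (3.97%). Both comparisons called 568 genes higher, which is 28.2% of the genes called higher in monocyte-derived cells and 93.3% of those called higher in HSC-derived cells. They called 348 genes lower in common, 20.2% and 82.7% of each list. Of the genes called higher in monocyte-derived cells 90.5% had a positive log2 fold change in HSC-derived cells, against 46.4% of all genes. Of those called lower 90.7% had a negative one, against 53.4% of all genes. Only 1 gene was called in opposite directions by edgeR. Leaving out HSC-derived leptomeningeal replicate 1, the deeper of the pair, gave 366 calls.

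Border markers were higher and microglial markers lower in HSC-derived cells too, and the interaction described below did not pass for Folr2, P2ry12 or Tmem119 (adjusted p = 0.9503, 0.9999 and 0.354). Folr2 had a log2 fold change of 5.04 (SE 0.26), with 656 and 662 CPM in HSC-derived leptomeningeal macrophages against 21.3, 13.7, 41.0 and 15.7 CPM in HSC-derived microglia. P2ry12 had one of -2.12 (SE 0.30), with 321 and 239 CPM against 1356, 1510, 1066 and 1049 CPM. Tmem119 had one of -3.30 (SE 0.27), with 91.0 and 92.4 CPM against 1098, 963, 707 and 818 CPM. In each of these the leptomeningeal libraries lay apart from the microglial ones. Beside 5.75% of all tested genes higher and 3.97% lower, 25 of 34 homeostatic genes were lower in HSC-derived cells. Of the border markers 17 of 29 were higher and 3 lower, and of the interferon genes 19 of 36 higher and 1 lower. Immediate early genes were higher in 21 of 25 cases and chemokine ligands in 13 of 21. Other lists had few calls there. Higher were 3 of 20 class I genes (13 in monocyte-derived cells) and 1 of 10 neutrophil markers (9). Of 17 cell cycle genes 0 were called (11 higher in monocyte-derived cells), with 4 higher at an unadjusted p under 0.05. Fibroblast and mural cell markers summed to 2170 to 3373 CPM in monocyte-derived and 3420 and 9428 CPM in HSC-derived leptomeningeal macrophages. In HSC-derived microglia they summed to 90.7, 78.3, 630 and 532 CPM, against 32.2 to 45.5 CPM in monocyte-derived microglia. The neutrophil markers, in contrast, summed to 1394 to 3127 CPM in monocyte-derived and 328 and 169 CPM in HSC-derived leptomeningeal macrophages. Ngp had 138, 379, 388 and 470 CPM in monocyte-derived leptomeningeal macrophages and no count in either HSC-derived library, whose 3 counts correspond to 5.15 and 23.1 CPM. The difference in change between origins did not pass for Ngp (adjusted p = 0.756).

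Whether the compartment difference depended on origin was tested by an interaction, the log2 fold change in monocyte-derived cells minus that in HSC-derived cells. Of 10597 genes 6 (0.0566%) were called, all with a more positive change in monocyte-derived cells. By edgeR none was called with a negative difference, with 236 such genes at an unadjusted p under 0.05 and 5 called by DESeq2. The class II genes H2-Eb1, H2-Aa and H2-Ab1 were among the 6, with differences of 1.92 (SE 0.32, adjusted p = 0.0079), 1.81 (SE 0.35, adjusted p = 0.0308) and 1.59 (SE 0.32, adjusted p = 0.0367). H2-Eb1 had 7960 and 8442 CPM in HSC-derived leptomeningeal macrophages, against 7760 to 11633 CPM in the monocyte-derived ones. It had 2043, 2299, 2890 and 2200 CPM in HSC-derived microglia, against the 536 to 930 CPM of monocyte-derived microglia. H2-Aa had 13426 and 15335 CPM in HSC-derived leptomeningeal macrophages and 3473, 3870, 4524 and 3483 CPM in HSC-derived microglia. Ccr2 had a difference of 1.51 (SE 0.27, adjusted p = 0.0163), with 486 and 277 CPM in HSC-derived leptomeningeal macrophages and 113, 118, 118 and 86.1 CPM in HSC-derived microglia. Lgals3 had 319 and 139 CPM against 118, 110, 164 and 74.4 CPM, and a difference of 1.67 (SE 0.33, adjusted p = 0.0367). Gngt2, a G protein gamma subunit, had 237, 378, 296 and 297 CPM in monocyte-derived leptomeningeal macrophages against 208, 192, 216 and 263 CPM in monocyte-derived microglia (log2 fold change 0.45, lost in 5 of 15 alternative fits), and 148 and 162 CPM against 258, 251, 389 and 427 CPM in the HSC-derived groups. Its difference was 1.53 (SE 0.30, adjusted p = 0.0311). Cd74 and Ciita had differences of 0.90 and 1.84 that did not pass (adjusted p = 0.387 and 0.255). The 6 calls depended on single libraries. Without HSC-derived leptomeningeal replicate 2, the shallowest library, 0 were called by edgeR, with 863 genes at an unadjusted p under 0.05, and without replicate 1 there were 40. Leaving out a monocyte-derived leptomeningeal library gave 8 calls without replicate 1, 2 without replicate 2, 1 without replicate 3 and 3 without replicate 4. Leaving out a monocyte-derived microglial library gave 1 call without replicate 1, 2 without replicate 2, 4 without replicate 3 and 3 without replicate 4. DESeq2 called 49 with all libraries.

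**Figure D4:**
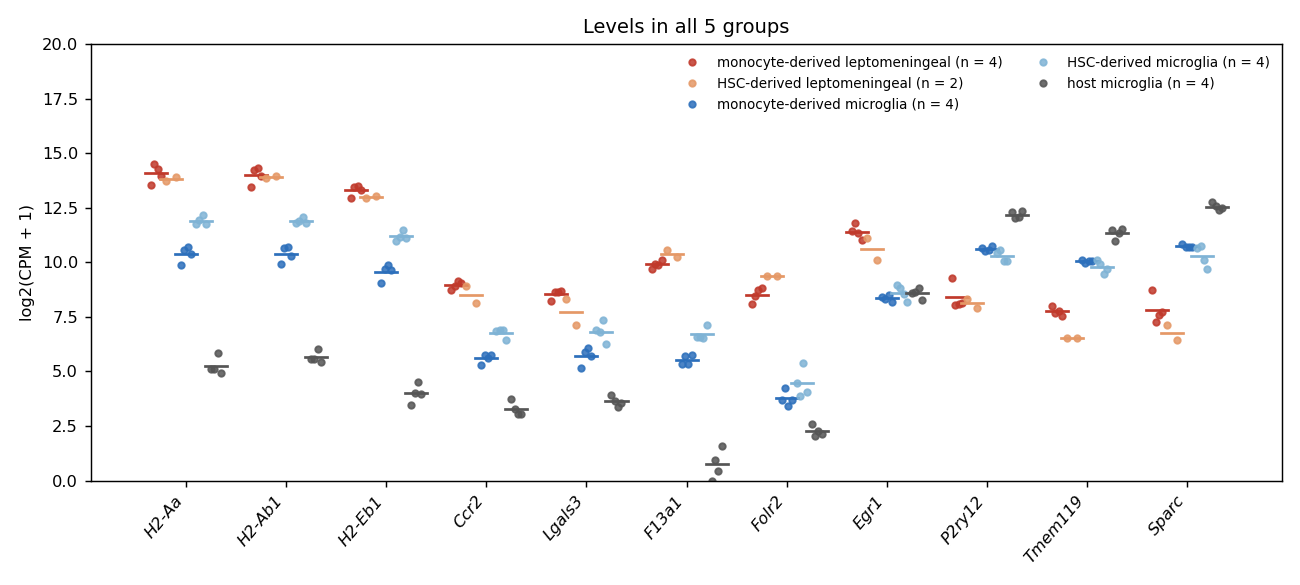
Levels of 11 genes on a log2(CPM + 1) scale in all 5 groups, 1 point per library and a bar at the group mean, in the order monocyte-derived leptomeningeal, HSC-derived leptomeningeal, monocyte-derived microglia, HSC-derived microglia and host microglia. The 3 class II genes differ between the microglial groups, with H2-Eb1 at 536 to 930 CPM in monocyte-derived and 2043 to 2890 CPM in HSC-derived microglia, while P2ry12, Tmem119 and Sparc are highest in host microglia.

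Host microglia give the level of these genes in cells that were not replaced, and are listed here without a test. Folr2 and F13a1 averaged 13.02 ± 3.61 and 45.8 ± 7.20 CPM in monocyte-derived microglia and 3.85 ± 0.825 and 0.817 ± 0.878 CPM in host microglia, so that monocyte-derived microglia lay between the leptomeningeal macrophages and host microglia. H2-Aa averaged 38.1 ± 11.9 CPM in host microglia. P2ry12, Tmem119 and Sparc averaged 4688 ± 513, 2607 ± 405 and 6034 ± 681 CPM there, above both donor monocyte-derived groups. Ctsd, at 9963 ± 676 CPM, was at a level like that of monocyte-derived microglia, and Egr1, at 384 ± 61.9 CPM, likewise. Hspa1a and Hspa1b averaged 509 ± 25.2 and 524 ± 36.9 CPM in host microglia, between the leptomeningeal macrophages and monocyte-derived microglia.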

How the data were processed

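Polyadenylated RNA of sorted mouse brain macrophages was read as 3' UMI libraries (bulk MARS-seq), per the labels. The authors deposited raw UMI counts per gene, on genome build mm10 per the submitters' processing notes. Which aligner and counter they used is not given in the sources used here. Normalized and rld columns beside them were not used. The table held 20 count columns, of which 2 matched no described sample and were not used. Groups came from the labels.

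Genes were filtered with filterByExpr and libraries scaled by TMM in edgeR 4.0.16 (R 4.3.3, limma 3.58.1), and all 18 libraries were fitted in 1 robust quasi-likelihood model with a coefficient per group (common biological coefficient of variation 0.161). Tests were two-sided with Benjamini-Hochberg adjustment over 10597 genes at 0.05. SE is the absolute log2 fold change over the root of F. With 1 to 3 counts in a group the count ratio is given with a 95% Clopper-Pearson interval. A count of 3 in a library was 1.73 to 3.29 CPM in the monocyte-derived libraries. Intervals and floors cover counting error only. Named genes were the 12 highest and 12 lowest called genes with at least 50 CPM and no overlap (predicted genes left out), in each list the 4 members, or fewer, of lowest p, a fixed set of markers, and the 5 highest and 5 lowest called genes of the interaction. The members, the 44 lists and the tests were chosen with earlier results of these data known. The procedure was tested on simulated data. Positions are from GENCODE vM21, and promoters from RefSeq. Alternatives were other size factors (DESeq2 1.42.0 and RLE), no filter, fewer libraries, the replicate block and leaving out single libraries. Some named or listed genes are not reported here.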

Additional observations from a re-analysis of the deposited data

Results flagged for a closer look

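Among 179 named genes in both groups of 4 libraries, 358 groups were tested for a library that stands far from the other 3. Chance alone picks out about 1 in 20 where values spread normally. A gene with counts in only 1 of the 4 libraries is always picked out. The number picked out was not tested against that share, so any single value below may be a chance pick. Among the picks in leptomeningeal macrophages, replicate 1 stood apart most often. It was high for P2ry12 (626 CPM, others 265 to 284), Adgrg1 (73.8, others 19.8 to 22.2), Capn3 (45.7, others 6.38 to 10.98), Rtn4rl1 (40.8, others 24.9 to 26.3) and Smad7 (64.6, others 32.5 to 37.3), and low for Lgals3 (297, others 391 to 406). Replicate 4 was high for Lyve1 (327 CPM, others 226 to 234) and Cxcl1 (102, others 68.9 to 73.6), replicate 2 for Ms4a7 (567, others 438 to 458) and replicate 3 for Pltp (560, others 392.04 to 406).

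In microglia many such values were counts of a few molecules. Replicate 3 had 0.701 CPM of Ltf and 1.40 CPM of Fcna, replicate 1 had 1.15 CPM of Lcn2 and 0.576 CPM of Igfbp2, and replicate 4 had 0.798 CPM of Serping1, each beside 0 in the other 3 libraries. Mmp9 was at 0 in replicate 1 (others 2.10 to 2.48). S100a8 reached 13.6 CPM in replicate 4 (others 2.10 to 3.31), Chil3 3.31 CPM in replicate 2 (others 0.576 to 0.798), Igkc 16.1 CPM in replicate 3 (others 2.88 to 3.99) and Irf4 6.39 CPM in replicate 4 (others 2.48 to 2.88). At higher levels, replicate 4 was high for Npnt (81.4 CPM, others 62.1 to 65.2) and Cx3cr1 (1895, others 1668 to 1691). Replicate 3 was high for Cd83 (266, others 218 to 225) and Cnp (28.7, others 18.4 to 19.6), and replicate 1 was low for Fcgrt (46.1, others 52.7 to 53.8).

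The interaction test called 6 genes, with log2 differences of 1.92 for H2-Eb1, 1.81 for H2-Aa, 1.67 for Lgals3, 1.59 for H2-Ab1, 1.53 for Gngt2 and 1.51 for Ccr2. These calls depended on single libraries, as described above. Over the alternative settings H2-Eb1 was called in 18 of 19, Ccr2 in 16, H2-Aa in 11, Gngt2 in 8, H2-Ab1 in 7 and Lgals3 in 6 of 18. H2-Eb1 was not called without HSC-derived leptomeningeal replicate 2, which left a single library in that group (log2 difference 1.94).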

How the results depend on the processing

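In monocyte-derived cells the number of called genes was 3137 to 3751 when 1 of the 8 libraries was left out and 3538 to 4779 under 7 other settings, against 3736, and 51.6% to 56.9% of calls were higher, against 53.9%. The highest count, 4779, came without the 3 shallow HSC-derived libraries, a setting chosen after seeing the data. In HSC-derived cells, leaving out 1 library gave 366 to 1242 calls, 177 to 709 of them higher and 189 to 533 lower. The interaction gave 49 calls by DESeq2, 44 higher and 5 lower, and 0 to 40 when 1 library was left out, 0 to 32 higher and 0 to 8 lower. Its 0 came without HSC-derived leptomeningeal replicate 2, with 863 genes at an unadjusted p under 0.05. Over the alternatives H2-Eb1 was called in 18 of 19, Ccr2 in 16, H2-Aa in 11, Gngt2 in 8, H2-Ab1 in 7 and Lgals3 in 6 of 18.

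With the replicate number as a block 3544 genes were called in monocyte-derived cells and 4 in the interaction. The numbers were not taken as pairs, since same-numbered libraries deviated together with correlations of only 0.0108 to 0.0556. The causes of these shifts were not tested. Depth limits genes near 3 counts, the HSC-derived leptomeningeal group and HSC-derived microglial replicates 3 and 4.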
